A study of Mus musculus with 2 samples.

Results

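The genes described here are 10 genes of striated muscle that serve at the sarcomere Z-disc, respond to stretch or take part in muscle wasting: Ankrd1, Ankrd2, Csrp3, Tcap, Trim63, Fbxo32, Hspb7, Lmod2, Pdlim5 and Mstn. They were taken by symbol, through the RefSeq accession of each array probe, and all 10 were found, among 20144 genes named on the array and with 13 probes among 55678. They were chosen with their differences between these same arrays known, so their values are a description and carry no test. RNA came from cells labelled P3 primary keratinocytes, which form the epidermis, of mice labelled Rac3-KO, which the labels call the control, and of mice labelled Rac1Rac3-DKO, called the DKO-labelled array below. Both groups thus lack Rac3 by their labels, and the second lacks Rac1 as well; Rac1 and Rac3 are small GTPases that relay signals to the actin cytoskeleton. Each group was 1 array (1-colour, Cy3), so nothing had a replicate check. The promoter that drove any Cre and the number of mice pooled are not given in the sources used here. The P3 of the label is not explained there, and whether it states the age of the mice or a culture passage is open.

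Striated muscle is built of sarcomeres, whose actin filaments are anchored at the Z-disc. Proteins at the Z-disc and along the giant protein titin bind both structural partners and signalling proteins, and several of their genes are induced when muscle is stretched or loaded. When muscle wastes, ubiquitin ligases mark its proteins for degradation, and myostatin, a secreted ligand of the TGF-beta family, holds back muscle growth. Keratinocytes are not known for sarcomeres, so these genes are read here beside the markers of muscle and of the labelled cell type.

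The arrays were of unequal brightness. The 75th percentile of the processed signal was 705 for Rac3-KO and 354 for the DKO label, and each array's log2 signals are given relative to it (the level). The dimmest probe marked well above background had a signal of 23.4 and 20.1. Rac1 gave signals of 19847 and 12139.8, a log2 difference of 0.28 (error 0.20), and Rac3 gave 99.8 and 59.1, a difference of 0.24 with an error of 0.24. Relative to all genes neither was lower under the DKO label. Where these probes lie relative to the deleted parts of the genes is not given in the sources used here, so they check nothing about the labels. Of 16 keratinocyte markers 14 were measured on both, among them Krt1 at -4.95, Krt10 at -4.50 and Krt15 at -2.31. With the DKO label 11 of the 14 were down by 2-fold or more (median log2 difference -1.73), and the summed signal of the list before scaling was 720979.9 and 102219. Of 30 skeletal muscle markers all were well above background on both arrays too, with a summed signal before scaling of 432368 for Rac3-KO and 1175621 for the DKO label. Muscle transcripts were thus measured in both samples beside those of the labelled cell type, and the markers do not bear out the label as keratinocytes alone.

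All 10 genes were well above background on both arrays and higher on the DKO-labelled array by at least 2-fold after scaling. The share of all 14145 measured genes that were at least 2-fold higher was 7.71%, and 6.62% were at least 2-fold lower. Of the 10 genes, 7 were at least 8-fold higher, as were 0.120% of all measured genes. Because the genes were picked from this difference, nothing is read from these counts. Their median log2 difference was 3.27, from 1.19 for Fbxo32 to 3.99 for Trim63, where the median of all measured genes was -0.008. On the scale of the spike-in RNAs that median was -2.07, so higher and lower are meant here relative to all genes. On that scale 7 of the 10 genes were at least 2-fold higher, as were 0.0990% of all measured genes. The measured skeletal muscle markers had a median of 2.29 on the same arrays, with 28 of 30 at least 2-fold higher. The part of muscle RNA content in the differences of the 10 genes was not tested, and in such bulk samples fewer cells of a type and less RNA per cell cannot be told apart.

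**Figure D1:**
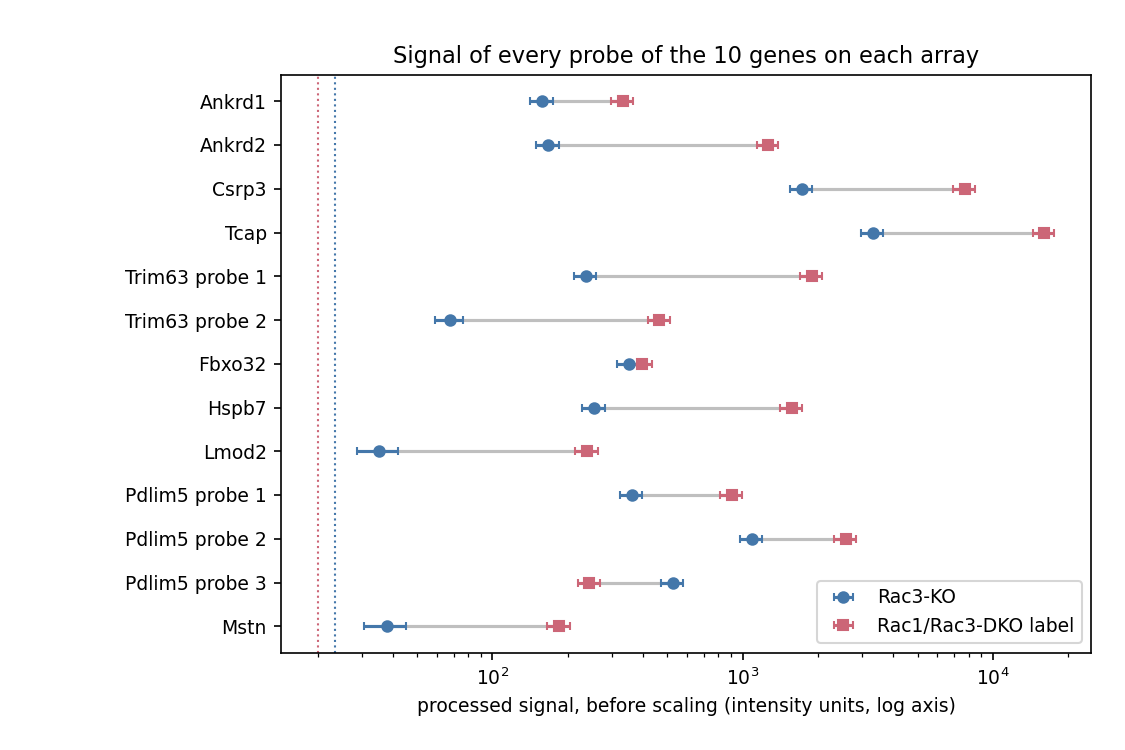
Processed signal of every probe of the 10 genes on the Rac3-KO array (blue circles) and the DKO-labelled array (red squares), before scaling, on a log axis; for Fbxo32 and Hspb7, spotted repeatedly, the median spot is shown. Bars are the scanner software's signal error and dotted lines the lowest signal well above background on each array (23.4 and 20.1); Lmod2 and Mstn lie nearest to it on the Rac3-KO array, and the third Pdlim5 probe is the one whose signal falls from blue to red.

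The Z-disc proteins Tcap and Csrp3 differed by close to the median of the 10 genes, and Pdlim5 by less. Tcap, or telethonin, which caps the end of titin at the Z-disc, gave processed signals of 3306 (Rac3-KO) and 16008 (DKO label), an order kept for pairs of signals from here on. After scaling it was 9.63-fold higher, a log2 difference of 3.27, with 0.20 as the error that the scanner software's own spot errors give (the signal error). Csrp3, the muscle LIM protein, a Z-disc adaptor needed for the response of heart muscle to load, gave 1720.2 and 7719.6, and was 8.93-fold higher (log2 difference 3.16, error 0.20). Both stood clear of background, at 141 and 73.4 times the lowest signal well above it in the Rac3-KO sample. With a normexp background correction they remained at 3.07 and 2.85.

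Pdlim5, or ENH, a PDZ and LIM domain protein that ties protein kinases to the Z-disc, was read by 3 probes that did not move together. A pair of probes annotated to the transcript NM_019809 gave 1087 and 2576 at the brighter probe and 359.9 and 904 at the other. Their log2 differences were 2.24 and 2.32, or 4.71-fold and 5.0-fold higher, with errors of 0.20 and 0.21. The probe annotated to NM_001190852 gave 526 and 244 and a log2 difference of -0.12 with an error of 0.21. The gap of 2.44 between the highest and the lowest of these probes compares with a median gap of 0.28 between the probes of the 3578 genes with several measured probes, of which 0.811% had a gap of 2 or more. As background, Pdlim5 is known to make short muscle forms without LIM domains beside a long form found in many tissues; which exons the probes read was not examined here. Whether Pdlim5 is counted as higher therefore depends on the probe, and its mean over probes was 1.48. On the spike-in scale the brighter probe differed by 0.18, under 2-fold.

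The muscle ankyrin repeat proteins, which bind titin's elastic segment and also enter the nucleus, differed from each other. Ankrd2, which is induced by stretch in skeletal muscle, gave signals of 167 and 1262, a 15.0-fold higher level (log2 difference 3.91, error 0.21). Ankrd1, best known from the loaded heart and as a target of the co-activator YAP, gave 158 and 331, a 4.17-fold higher level (log2 difference 2.06, error 0.21). On the spike-in scale Ankrd1 was at 0.003, which ends its call, and Ankrd2 at 1.85. Their log2 differences lie further apart than their errors, and the difference was larger for Ankrd2. The third family member, Ankrd23, gave 481 and 496 and differed by 1.04 (error 0.21) at its brighter probe. Its dimmer probe gave 137 and 195, a difference of 1.49.

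The chaperone and filament genes were measured with unequal precision. Hspb7, a small heat shock protein of heart and skeletal muscle, was spotted repeatedly: its 10 spots on the Rac3-KO array ran from 229 to 282 with a median of 255, and the 9 spots kept on the DKO-labelled array from 1477 to 1641 with a median of 1571. The ranges lie far apart, the log2 difference over paired spots had an SD of 0.10, and the gene was 12.2-fold higher (log2 difference 3.60). Spots of an array are technical repeats and say nothing of variation between mice. Lmod2, a leiomodin that lengthens the thin filaments at their pointed ends, gave 35.3 and 239, a 13.5-fold difference (log2 difference 3.75, error 0.31). On the Rac3-KO array Lmod2 was dim: its raw median signal was 87.5, against a local background of 28.0 and a median of 48.5 over negative control spots, and its processed signal was 1.51 times the lowest well above background. Its raw signal under the DKO label was 287. With normexp its log2 difference was 2.43.

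The ubiquitin ligases of muscle wasting were at opposite ends of the range. Trim63, or MuRF1, which marks thick filament proteins for degradation, had the highest difference of the 10 genes. Its brighter probe gave 236 and 1889.8, a 15.9-fold higher level (log2 difference 3.99, error 0.21), and its dimmer probe gave 67.6 and 464, a 13.7-fold higher level (3.77, error 0.23). The probes thus gave like differences. Fbxo32, or atrogin-1, the F-box ligase most often measured together with Trim63, had the lowest difference. Its 10 spots ran from 312 to 376 on the Rac3-KO array, with a median of 349.7, and from 378 to 422 on the DKO-labelled array, with a median of 395. The mean signals were 345 and 397. Before scaling the DKO-labelled signal was 1.15-fold that of Rac3-KO, and after scaling 2.29-fold (log2 difference 1.19, error 0.21, SD over spots 0.11). With normexp the difference was 0.97, and on the spike-in scale it was -0.87, so the direction for Fbxo32 depends on the scaling.

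Mstn, myostatin, gave 37.9 and 185, a 9.73-fold higher level (log2 difference 3.28, error 0.31). Like Lmod2 it was dim on the Rac3-KO array, with a raw median signal of 94.0 beside a local background of 29.0, at 1.62 times the lowest signal well above background. Its raw signal under the DKO label was 223. With normexp the difference was 2.01. The size for Lmod2 and Mstn is thereby less firm than for Tcap or Hspb7, while both were higher under each scaling tried.

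**Figure D2:**
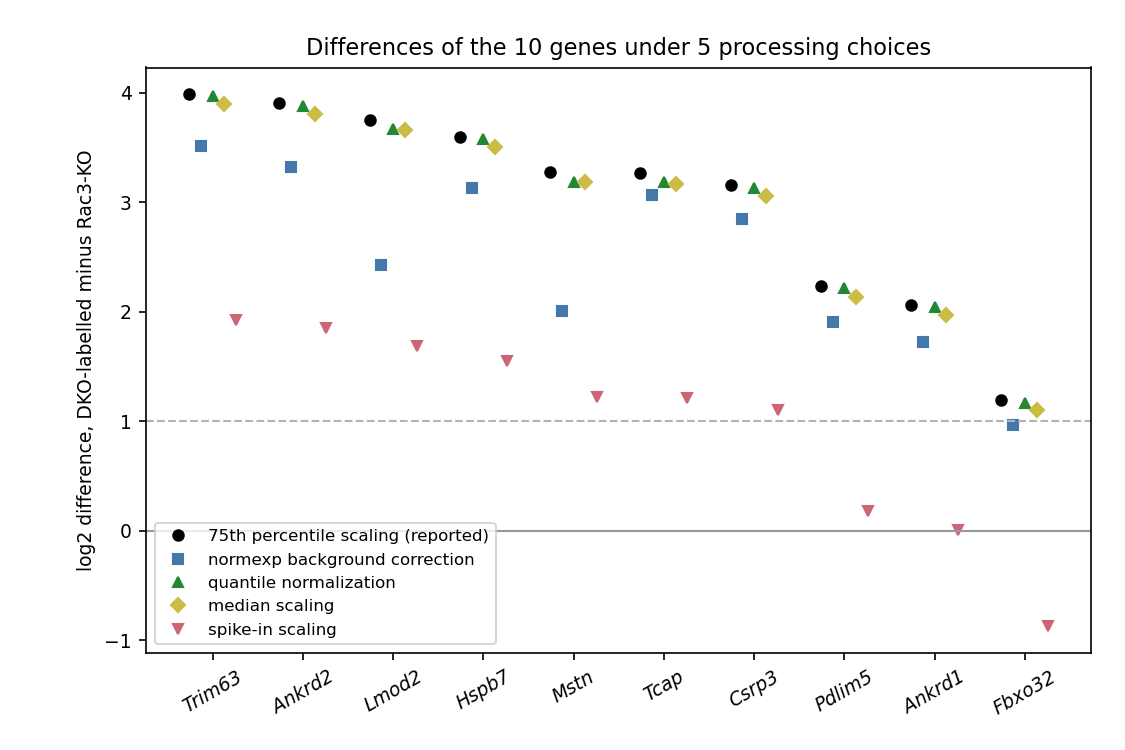
Log2 difference of each of the 10 genes, DKO-labelled minus Rac3-KO array, under 5 processing choices marked by colour and shape; the solid line is 0 and the dashed line a 2-fold difference. Normexp (blue squares) lowered Lmod2 from 3.75 to 2.43 and Mstn from 3.28 to 2.01, and spike-in scaling (red triangles) lowered all 10 genes, with Fbxo32 at -0.87.

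Set against the skeletal muscle markers, the 10 genes were not of a piece. The log2 difference minus the marker median of 2.29 was 1.70 for Trim63, 1.61 for Ankrd2, 1.46 for Lmod2, 1.31 for Hspb7, 0.99 for Mstn, 0.98 for Tcap and 0.87 for Csrp3. It was -0.056 for Pdlim5, -0.23 for Ankrd1 and -1.10 for Fbxo32. So 7 genes lay above the marker median and 3 below, of which Pdlim5 lay within its signal error of 0.20. The 10 genes were picked with these differences known, so nothing is read from this count. With normexp, which gave the markers a median of 2.08, 6 lay above, Mstn came to -0.063, and Lmod2 to 0.36 with a signal error of 0.31. The markers themselves ranged from -0.018 for the fast myosin heavy chain Myh4 to 4.07 for the regulatory light chain Myl2. Myl2 was dim on the Rac3-KO array, with signals of 27.7 and 234 and an error of 0.32, so its size is less firm. The creatine kinase Ckm was at 3.0 and the tropomyosin Tpm1 at 2.66. A difference between probes within the same pair of arrays shows unequal change only.

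Upstream sequence is shown for 4 of the genes because they include the largest difference (Trim63) and the smallest (Ankrd1) among the genes with a window, both stretch-response ankyrin genes, and Mstn. RefSeq's promoter table (GRCm38.p6) held 10 windows for 8 of the 10 genes, Tcap and Fbxo32 not among them. The 250 bases before the annotated start were searched on both strands for the E-box bound by myogenic factors (CANNTG), the M-CAT element bound by TEAD factors (CATTCC), the TATA box (TATAAA), a FOXO site (GTAAACA), and the MEF2 and CArG motifs. Capitals mark the matches, which in these 4 do not overlap each other. Trim63 lies at chr4:134314870-134315119 (plus strand), Ankrd2 at chr19:42035777-42036026 (plus strand), Ankrd1 at chr19:36119845-36120094 (minus strand) and Mstn at chr1:53061390-53061639 (plus strand).
Trim63: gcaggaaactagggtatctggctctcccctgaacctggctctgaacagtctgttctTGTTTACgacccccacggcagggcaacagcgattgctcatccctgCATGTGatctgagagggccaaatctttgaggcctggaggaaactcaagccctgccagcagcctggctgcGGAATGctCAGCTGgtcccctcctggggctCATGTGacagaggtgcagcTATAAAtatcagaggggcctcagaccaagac
Ankrd2: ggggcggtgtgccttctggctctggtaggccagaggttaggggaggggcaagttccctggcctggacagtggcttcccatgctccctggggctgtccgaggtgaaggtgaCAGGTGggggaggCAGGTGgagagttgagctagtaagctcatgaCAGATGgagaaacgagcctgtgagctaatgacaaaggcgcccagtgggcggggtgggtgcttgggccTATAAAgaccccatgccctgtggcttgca
Ankrd1: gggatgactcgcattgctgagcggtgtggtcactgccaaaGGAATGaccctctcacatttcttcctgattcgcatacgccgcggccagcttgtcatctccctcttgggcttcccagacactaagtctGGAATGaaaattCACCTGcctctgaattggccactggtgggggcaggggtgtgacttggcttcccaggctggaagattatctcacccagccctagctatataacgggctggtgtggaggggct
Mstn: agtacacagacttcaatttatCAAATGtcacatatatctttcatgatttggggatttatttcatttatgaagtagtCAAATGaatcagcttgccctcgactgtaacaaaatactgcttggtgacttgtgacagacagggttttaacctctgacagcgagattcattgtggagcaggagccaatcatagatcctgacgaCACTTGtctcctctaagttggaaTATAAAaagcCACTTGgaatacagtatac

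An E-box was found in 9 of the 10 windows, and in 66.2% of all 32851 promoters of the table. M-CAT letters were found in 2 windows, those of Ankrd1, with 2 matches, and Trim63, with 1, against 12.6% of all promoters. TATA box letters were found in 4 windows, those of Trim63, Ankrd2 and Mstn and 1 of Pdlim5, against 12.4%. The Pdlim5 match lay on the strand opposite to the gene, at -78 to -73 from the start. Only the exact letters TATAAA were counted, so a window without a match may hold a related form. A FOXO match was found in 1 window, that of Trim63, against 3.17%, and the MEF2 and CArG motifs in 0, against 2.92% and 1.47%. Trim63 and Ankrd1, whose log2 differences were 3.99 and 2.06, both hold E-box and M-CAT letters. A match describes the letters of a window and does not show a bound site.

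The paralogues of these genes were mixed. Of 23 measured paralogues 14 were up by 2-fold or more and 0 down by as much, with a median log2 difference of 1.22 (-0.84 on the spike-in scale) and a range of -0.25 to 2.83. The muscle LIM protein Csrp3 differed by 3.16, whereas Csrp1 and Csrp2, its relatives in smooth muscle and other tissues, differed by 0.51 and 0.28. Of the MuRF family, Trim54 (MuRF3) differed by 2.79 with signals of 169 and 585, and Trim55 (MuRF2) by 1.24 with signals of 31.6 and 37.4, near the background, beside 3.99 for Trim63. Fbxo25, the nearest relative of Fbxo32, differed by -0.16.

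The small heat shock proteins formed a range below Hspb7. Cryab, the alpha-B crystallin that protects desmin and the Z-disc, differed by 2.45 with signals of 7140.4 and 19608. Its dimmer probe gave 1447 and 2369.7, a difference of 1.70, so its place in the range depends on the probe. The muscle forms Hspb2, Hspb6 and Hspb3 differed by 2.0, 1.96 and 1.76. The broadly expressed Hspb1 and Hspb8 differed by 1.22 and 0.45. Among pointed-end proteins, Lmod3, the leiomodin of skeletal muscle, differed by 2.37, and the tropomodulins Tmod1 and Tmod4 by 2.53 and 2.24. The tropomodulins Tmod2 and Tmod3 differed by 1.21 and -0.25, and Lmod1 was well above background on neither array.

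Among PDZ and LIM proteins, Ldb3 (Cypher or ZASP) differed by 2.83 and Pdlim3, the actinin-associated LIM protein, by 2.24. Another Ldb3 probe gave 809 and 1757, a difference of 2.11. Pdlim7 differed by 0.97, Pdlim1 by 0.35, Pdlim2 by -0.075 and Pdlim4 by -0.095. These 4 were within 2-fold at their brightest probes, but a Pdlim7 probe annotated to NM_026131 gave 769 and 1405, a difference of 1.86. Pdlim5 at its brighter probe lay at the value of Pdlim3. Gdf11, the closest relative of Mstn, was detected only in the Rac3-KO sample, with signals of 28.8 and 12.4 and no usable fold.

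**Figure D3:**
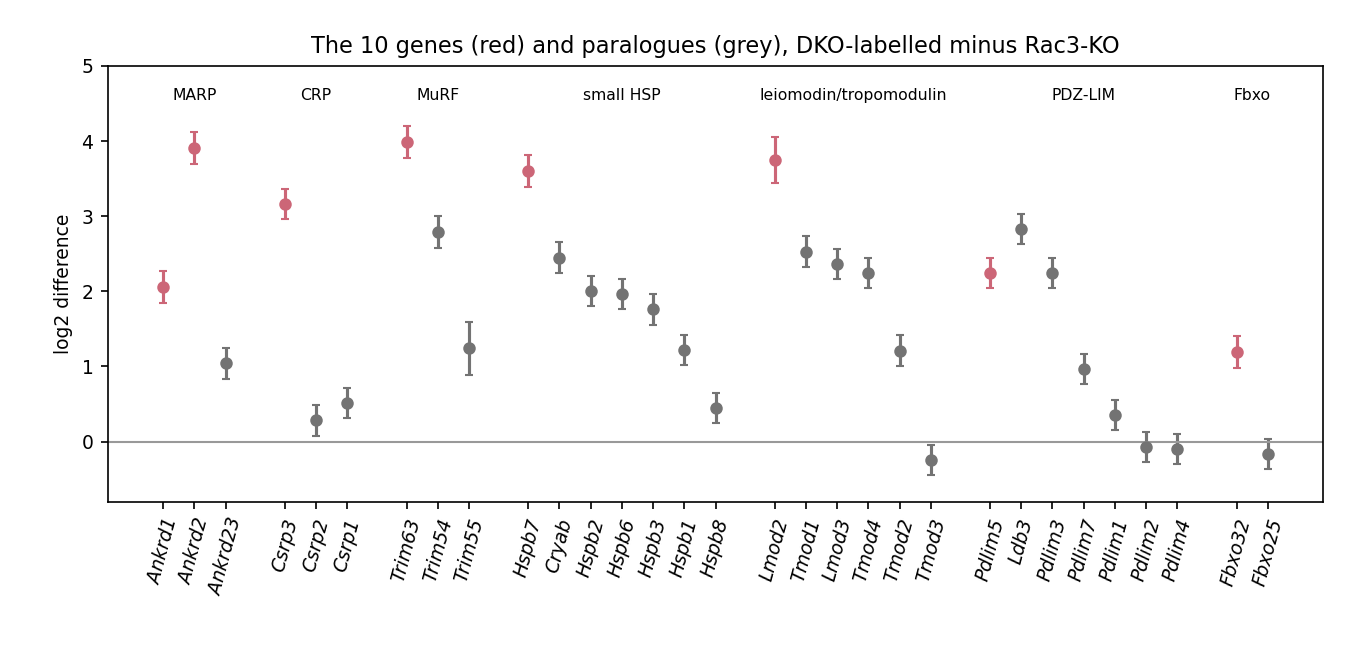
Log2 difference, DKO-labelled minus Rac3-KO array, of those of the 10 genes that have a measured paralogue (red) and of their paralogues (grey), grouped by family; bars are the scanner software's signal error. Trim63, Csrp3, Hspb7 and Lmod2 lie above every paralogue shown, Ankrd2 lies above Ankrd1 and Ankrd23, and Pdlim5 lies below Ldb3 at the probes shown.

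Other Z-disc and titin-associated genes were mostly higher too. Of 26 measured, 21 were up by 2-fold or more and 0 down by as much, with a median of 2.30. The fast alpha-actinin gene Actn3, whose product cross-links actin at the Z-disc, differed by 3.14, the thin filament stabiliser Klhl40 by 3.12 and the Z-disc protein myotilin, Myot, by 2.89. Jph1, a junctophilin of the membrane junctions of muscle, was detected only under the DKO label, at least 5.40-fold higher after scaling. Its signals were 19.3 and 63.6. The lowest was Fhod3, a formin, at -0.27. Synpo2l and Bag3 differed by -0.010 and 0.15.

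The wider programme of muscle atrophy and denervation did not share the size seen for Trim63. Of 33 measured genes 11 were up by 2-fold or more and 0 down by as much, with a median of 0.70. The highest were the F-box gene Fbxl22 at 2.39, Asb2, a ubiquitin ligase subunit of muscle, at 2.27, and the metallothionein Mt1 at 2.0. The FOXO factors that drive Trim63 and Fbxo32 in wasting muscle were within 2-fold, with Foxo1 at 0.35, Foxo3 at 0.81 and Foxo4 at 0.94; the last 2 were near background, with signal errors of 0.38 and 0.43. Klf15, a glucocorticoid-induced factor, was at 1.26. Genes known from denervated muscle were at 1.39 for Myog, 0.93 for the acetylcholine receptor subunit Chrna1 (0.25 at its dimmer probe) and 1.57 for Chrnd. Other genes of the list lay lower, with Hdac4 at 0.28, Hdac9 at -0.038, Runx1 at -0.46 (-1.08 at its dimmer probe) and Gadd45a at -0.53. Chrng, the fetal receptor subunit, was detected only under the DKO label, at least 2.22-fold higher after scaling. Its signals of 18.6 and 26.2 were both near the background, so this fold is not firm. By each gene's brightest probe the lowest was Trim32 at -0.76.

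The myostatin pathway outside Mstn lay near 0. Of 21 measured genes 1 was up by 2-fold or more and 2 were down by as much, with a median of -0.095. The follistatin-like gene Fstl1 differed by 1.06. The type I receptor gene Acvr1b differed by -1.47 with signals of 238 and 43.2, and Tll1, a protease of the family that frees myostatin from its propeptide, by -1.61 at its brighter probe and 0.22 at its dimmer one. With normexp 0 genes of the list were at least 2-fold lower. The main receptor of myostatin, Acvr2b, differed by -0.23 and its antagonist follistatin, Fst, by -0.17.

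The genes of YAP and of serum response factor, which include Ankrd1 in other cells, were mixed as well. Of 20 measured 2 were up by 2-fold or more and 1 was down by as much, with a median of 0.14. Axl, a receptor kinase, and Ccn2, a secreted matricellular protein, differed by 1.39 and 1.18, and Ajuba, a junctional LIM protein, by -1.36. Ccn1, another widely used YAP target, differed by -0.42, Yap1 by -0.53 and Srf by -0.41. Ankrd1, at 2.06, lay above each of the 20. It was picked with its difference known, so nothing is read from this rank.

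**Figure D4:**
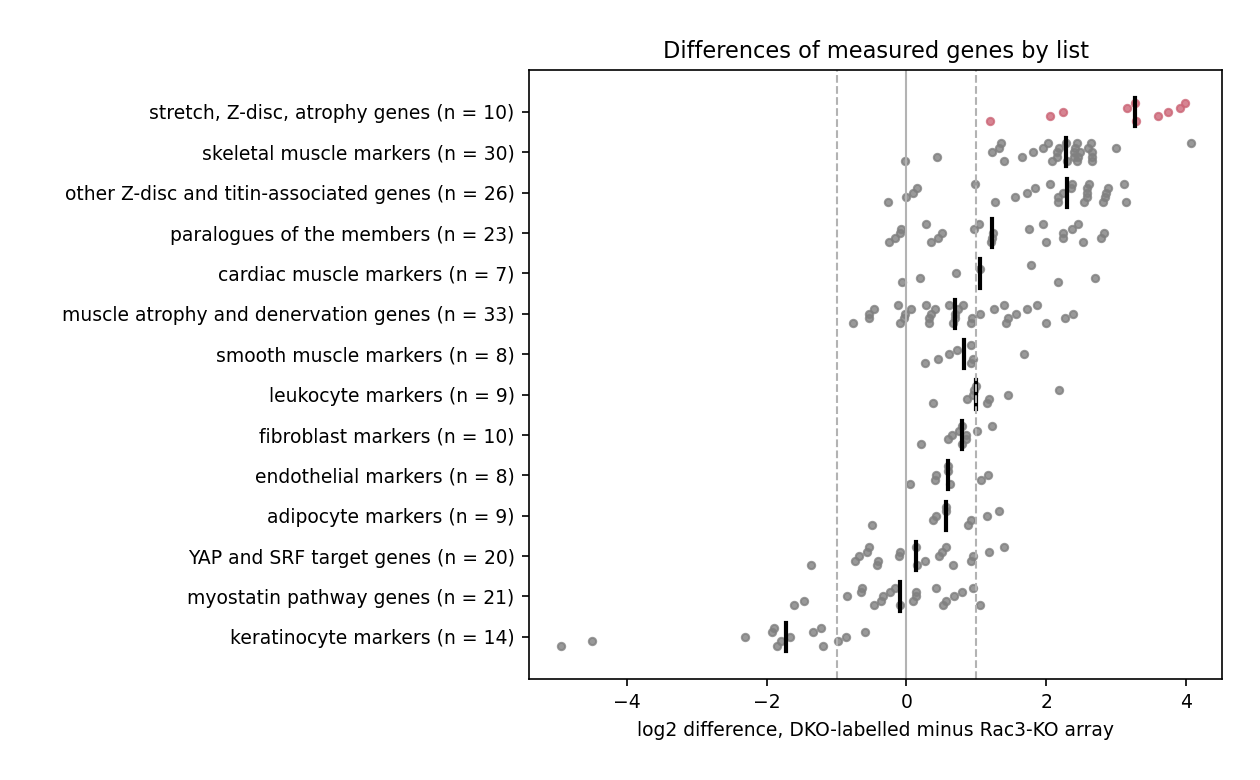
Log2 difference of every measured gene, DKO-labelled minus Rac3-KO array, by list, with the list's median as a black bar; dashed lines mark 2-fold. The 10 genes (red) have a median of 3.27, skeletal muscle markers 2.29, other Z-disc genes 2.30, atrophy genes 0.70, myostatin pathway genes -0.095 and keratinocyte markers -1.73.

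Several of the 10 genes are used by heart as well as skeletal muscle, so markers of other contractile cells were read beside them. Of 12 cardiac markers 7 were measured, 4 of them at least 2-fold higher, with a median of 1.06 (-1.0 on the spike-in scale). Those higher were Sln at 2.70, Myl4 at 2.17, Tnnt2 at 1.79 and Mybpc3 at 1.06, of which the first 3 are also known from developing skeletal muscle. Mybpc3 was near the background, with signals of 38.9 and 40.9 and an error of 0.33. With median scaling 3 cardiac markers were at least 2-fold higher. Of the cardiac markers under 2-fold, Nppa, an atrial hormone, gave 58.3 and 48.0 (0.71), and Gja5, a connexin, 515 and 295 (0.19). Myh6, Myl7, Nkx2-5 and Ryr2 were well above background on neither array. Nppb was well above background only under the DKO label. Its signals of 27.2 and 35.0 were both near the background, so its 2.56-fold difference after scaling is not firm. Tnni3 differed by -0.067 near the background, with signals of 56.4 and 27.1. Of 8 measured smooth muscle markers 1 was at least 2-fold higher, Myocd at 1.69, and the median was 0.82. All 8 were above 0 after scaling; their summed signal before scaling was 26156 and 22843.

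For markers of other skin cells the list medians lay below the 3.27 of the 10 genes, though single markers exceeded Fbxo32. Cd163 also exceeded Ankrd1, but by less than its signal error of 0.26, with dim signals of 50.7 and 116. The median was 0.99 over 9 leukocyte markers, 0.79 over 10 fibroblast markers, 0.60 over 8 endothelial markers and 0.57 over 9 adipocyte markers. At least 2-fold higher were 4, 2, 2 and 2 of them, and none was at least 2-fold lower. They were led by the macrophage genes Cd163 at 2.19, Csf1r at 1.45 and Mrc1 at 1.18, the matrix genes Fbn1 at 1.23 and Col1a1 at 1.01, the endothelial genes Kdr at 1.17 and Cldn5 at 1.07, and the fat cell genes Plin4 at 1.33 and Retn at 1.15. A dimmer Kdr probe gave 2332 and 1385, a difference of 0.24. With the mean over the probes of a gene, 1 endothelial marker was at least 2-fold higher. The part of these other skin cells in the differences of the 10 genes was not tested.

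Outside all lists, the genes whose difference was nearest the median of 3.27 were Dusp13 at 3.32, D630039A03Rik, known by a clone name, at 3.13, Prg4 at 3.11, Art1 at 3.04, Hhatl at 3.01 and Cox6a2 at 2.92. This likeness rests on a single difference between 2 arrays. Their signals were 84.0 and 420.4 for Dusp13 and 5318 and 20241 for Cox6a2, the heart and muscle form of a cytochrome oxidase subunit.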

How the data were processed

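RNA of cells labelled primary keratinocytes was hybridised to 1-colour Agilent arrays, 1 per genotype label. The authors' scanner files hold spot intensity which per the file headers came from Feature Extraction 10.10.1.1, while version 9.1 stands in the submitters' processing notes. The software's processed signal was used, whose background settings are not given in the sources used here. Both arrays share 1 slide and 1 scan time, per the file headers. A value table that the authors deposited holds log2 levels: among probes with a single spot, 100.0% lie within 0.001 of the log2 processed signal less 1 constant for each array (column medians -3.72 and -3.62).

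Log2 processed signals were averaged over a probe's spots without control spots and outlier spots (155 and 190), and each array's 75th percentile was subtracted. Accessions were matched without versions to RefSeq genes (GRCm38.p6, names and promoters only), which named 26580 of 55678 probes. Each gene took its probe of highest mean level and counted as measured where both arrays marked that probe well above background. Genes detected in 1 sample got an at-least fold, against the dim level or the array's lowest detected level, whichever was higher. With 1 array per genotype no test was run and the threshold was 2-fold; the error is the scanner software's (median 0.20 on the log2 difference) and holds no variation between mice.

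The 10 genes and the 13 companion lists were chosen with earlier results of these data known. Named were, from each list, up to 3 genes at least 2-fold apart each way, by size of difference, or the furthest gene where a direction had none, with Rac1, Rac3, all paralogues of the 10 genes and the 5 genes nearest their median, leaving out clone and predicted-gene names (with these kept, D630039A03Rik enters). Other list genes named (Synpo2l, Bag3, Foxo1, Foxo3, Foxo4, Klf15, Myog, Chrna1, Chrnd, Chrng, Hdac4, Hdac9, Runx1, Gadd45a, Jph1, Acvr2b, Fst, Ccn1, Yap1, Srf, Myh6, Myl7, Nkx2-5, Ryr2, Nppa, Nppb, Gja5, Mybpc3 and Ttn) were chosen after their values were seen. Genes at the low end of some marker lists are left out. Computation used Python 3.11.15, numpy 2.4.6, pandas 2.3.3, matplotlib 3.10.9 and R 4.3.3 with limma 3.58.1 (normexp with an offset of 50, quantile and loess). The procedure was checked on simulated arrays. Normexp took the median spot signal.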

Additional observations from a re-analysis of the deposited data

How the results depend on the processing

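The alternatives numbered 14 (background correction, scaling, detection filter, choice of probe, outlier spots, the deposited value table and the threshold). Under them 7 to 10 of the 10 genes were at least 2-fold higher. The median log2 difference of 3.27 became 2.64 with normexp and 1.22 with spike-in scaling. Its excess of 0.98 over the skeletal muscle marker median became 0.56 with normexp. The 10 genes were picked with these differences known, so the excess is a description only. Fbxo32 went to -0.87 with spike-in scaling and Pdlim5 to -0.12 when a gene took its dimmest measured probe. Spike-in scaling, which put the median of all measured genes at -2.07, also turned 9 list medians below 0: paralogues -0.84, cardiac -1.0, leukocyte -1.07, smooth muscle -1.23, fibroblast -1.27, atrophy -1.36, endothelial -1.46, adipocyte -1.49, and YAP and serum response factor genes -1.92. It left Ankrd1 at 0.003 and Pdlim5 at 0.18, under 2-fold. On that scale 14 measured genes were up by 2-fold or more and 13180 down, in place of 1091 and 937. With no detection filter 2122 were higher and 1521 lower, at 1.5-fold 2581 and 2335, at 3-fold 324 and 315. In the reported scaling genes higher made up 53.8% of those 2-fold apart, and 43.6% with median scaling. With a signal of at least 2 times the lowest well above background, Lmod2 and Mstn were no longer measured and the other 8 genes were at least 2-fold higher.

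No paired analysis was possible because each group holds 1 array. The number of arrays limits every value, and signals close to background limit Lmod2 and Mstn on the Rac3-KO array.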

Other observations

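Pdlim5 was not the only muscle gene of the lists whose probes parted. Of 53 list genes with several measured probes, 3 had a gap of at least 2 in log2 difference: Tpm1, Trp63 and Pdlim5. Tpm1, a tropomyosin that makes many forms in muscle and other cells, was read by 5 probes. The highest difference was 2.67, at a probe annotated to NM_001164248 with signals of 21858 and 70126, and the lowest -0.41, at a probe annotated to NM_001164251 with signals of 544 and 206. Trp63, the transcription factor of stratified epithelia, parted in the other direction, with -1.80 at a probe of NM_011641 (signals 16133 and 2331) and 0.43 at a probe of NM_001127261 (signals 4365 and 2958). Ttn, the titin gene, came close, with a gap of 1.95 over 4 probes, from 1.27 for NM_011652 (signals 3195 and 3880.4) to 3.22 for NM_028004 (signals 105 and 491). For each of these genes a single probe per gene hides the spread.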
